A study of Mus musculus with 30 samples.

Results

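Gene expression in the liver (LIV) of fed mice was compared with that in epididymal white adipose tissue (WAT, fat from the pad at the testis) and skeletal muscle (SM) of fed mice, and genes were sorted into those higher or lower in LIV than in each of the other two tissues. The arrays were chosen by their labels, as those of mice that ate chow at will, apart from 1 LIV array. They were 14 of the 30 arrays of the study: LIV replicates 1, 2, 3 and 5, WAT replicates 1 to 5 and SM replicates 1 to 5. LIV replicate 4 has the same label but was left out, as in the array set that the study analysed. The study removed it as an outlier in a principal component analysis, and thus by its values. It was put back as an alternative. All groups were male C57Bl/6 mice of 10 to 12 weeks, sampled at the 24 h time point, with no transgene and no treatment other than the feeding state. The fasted arrays of the series, from mice without food for 24 h, enter the last comparison, the tests of feeding state in the closing section and 1 alternative.

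Hepatocytes, the main cells of the liver, secrete most proteins of the blood plasma, turn the nitrogen of amino acids into urea, make bile acids, clear foreign compounds, store glycogen and release glucose and ketone bodies for other organs. They share the organ with sinusoidal endothelial cells, Kupffer cells (the resident macrophages) and stellate cells, which store vitamin A. Adipocytes store fat and muscle fibres burn fuel, and both take up glucose in response to insulin through a transporter that hepatocytes lack.

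Each value below is the log2 signal of a gene after robust multi-array average (RMA) normalization, so that a difference of 1 is 2-fold. A gene was called higher or lower in LIV at an adjusted p under 0.05 in limma and a difference of at least 1.3-fold, and "both" stands for a call in the same direction against WAT and against SM. Signals of different genes come from different probes and were not set against each other. The LIV arrays correlated with each other at 0.99 to 0.996 over all probe sets, with WAT arrays at 0.847 to 0.86 and with SM arrays at 0.807 to 0.824, and array medians ranged from 4.933 to 5.156.

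The tissue labels were checked against defining markers. Alb, which encodes albumin, read 13.18, 13.09, 13.25 and 13.06 on the LIV arrays, 6.87, 7.51, 7.3, 7.06 and 7.21 on the WAT arrays, and 8.01, 7.26, 7.46, 5.57 and 6.67 on the SM arrays. Apob, the structural protein of very low density lipoprotein, read 12.14, 12.22, 12.33 and 12.27 in LIV, 3.74, 3.79, 3.93, 3.77 and 3.77 in WAT, and 4.12, 3.98, 5.41, 3.92 and 3.98 in SM. Apoa1, the main protein of high density lipoprotein, read 12.67, 12.67, 12.71 and 12.71 in LIV, 4.5, 4.56, 5.3, 4.33 and 4.77 in WAT, and 5.15, 5.01, 7.99, 4.54 and 4.79 in SM. For these markers every LIV array lay above every WAT and SM array, a position held by 14.8% of all genes, and all 9 measured hepatocyte markers (Alb, Apoa1, Apob, Ttr, Ahsg, Tat, Cps1, Cyp3a11 and F2) were higher in LIV than in both. The mean of the 9 ranged from 12.39 to 12.47 on the LIV arrays, from 4.02 to 4.21 on the WAT arrays and from 4.00 to 5.07 on the SM arrays.

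Markers of other tissues were read on the SM and WAT arrays too. SM replicate 3 had the highest hepatocyte mean of its group, 5.07, and stood apart from the other SM arrays for Apoa1, Apob and Fabp1. Adipocyte markers, which lay between 11.67 and 11.85 on average in WAT and between 5.37 and 5.62 in LIV, varied in SM from 7.90 on replicate 4 to 9.81 on replicate 1. Muscle fibre markers lay between 12.42 and 12.50 in SM, between 4.47 and 4.55 in WAT and between 4.04 and 4.20 in LIV. In RNA from whole tissue, fewer cells of a type and less RNA per cell cannot be told apart.

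**Figure D1:**
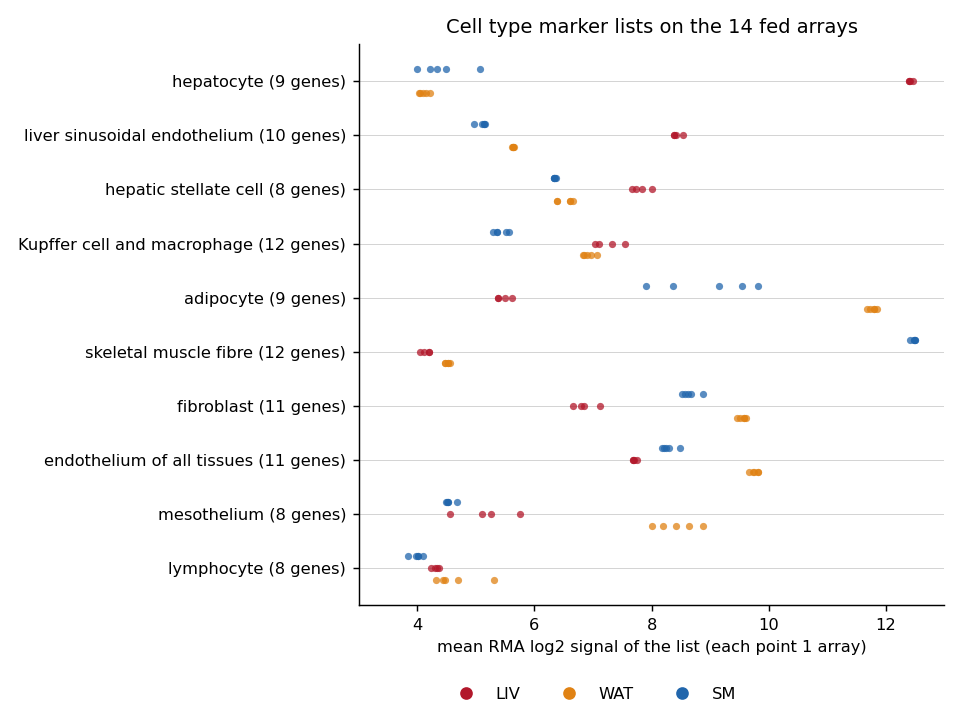
Mean RMA log2 signal of each cell type marker list (horizontal axis) on the 14 fed arrays, 1 point per array, with the number of measured genes in parentheses. Hepatocyte, sinusoidal endothelial and stellate cell lists lay highest in LIV, adipocyte, fibroblast and endothelial lists highest in WAT, and the adipocyte list spread from 7.90 to 9.81 over the SM arrays.

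Of 18781 genes, 2394 (12.7%) were higher in LIV than in both tissues and 2664 (14.2%) were lower. Against WAT alone 3508 genes (18.7%) were higher and 4814 (25.6%) lower, and against SM alone 4089 (21.8%) were higher and 4908 (26.1%) lower. The counts in the gene lists below are to be read against these shares of all genes. Many lists were named for liver functions, and all were chosen with earlier results of these data known. High shares in them are thus in part built in. LIV lay between the other tissues for 411 genes (2.19%) that were higher than in WAT and lower than in SM and for 548 genes (2.92%) in the opposite order, and 7479 genes (39.8%) were called in neither comparison. Centring the arrays on reference genes shifted the median difference over all probe sets by -0.243 against WAT and by -0.099 against SM. Higher genes then made up 26.4% of the calls against WAT and 34.1% of the calls against both. The deposited scale gave 42.2% and 47.3%. Centring on array medians shifted that median difference by 0.127 against WAT, and the shares of higher genes became 51.9% and 53.8%.

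For calls against both tissues, the larger the difference, the more of them lay on the high side. Against WAT alone lower genes stayed the majority, with 855 higher and 1013 lower at 4-fold. At 2-fold or more against both tissues, 1332 genes (7.09%) were higher in LIV and 1083 (5.77%) lower, a balance that reference gene centring turned to 1162 and 1334. At 4-fold the counts were 749 (3.99%) and 348 (1.85%), and at 16-fold 362 (1.93%) and 37 (0.197%). The 16-fold counts were between 353 and 369 higher and between 33 and 41 lower under the 4 other scalings. Both mean signals, WAT and SM, were under the median of all values (5.03) for 309 of the 362 genes (85.4%), against 39.9% of all genes, so that most of these genes gave a low signal outside LIV. The plot of all genes shows them along the diagonal.

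**Figure D2:**
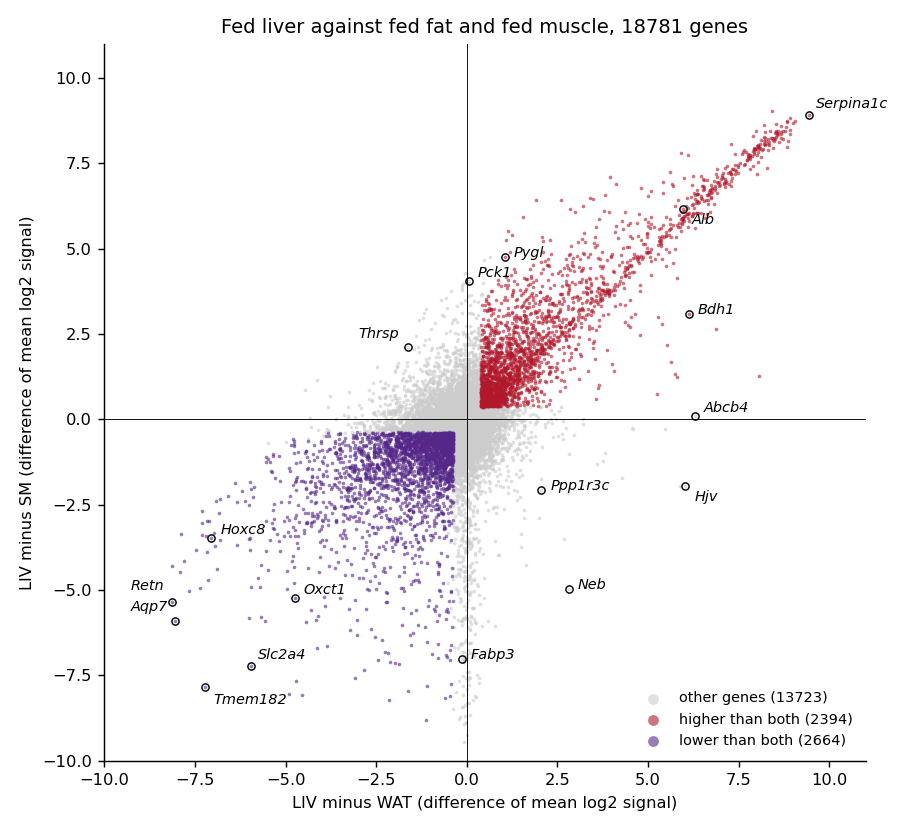
Difference of mean log2 signal LIV minus WAT (horizontal axis) against LIV minus SM (vertical axis) for 18781 genes, with 2394 higher in LIV than in both in red and 2664 lower in purple. The red points reach 9.43 and 8.91 (Serpina1c) along the diagonal, and few purple points lie as far out in both directions. The axes share the LIV arrays, so the diagonal is in part built in.

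Among genes whose LIV arrays lay above every other array, the 12 with the largest smaller difference were Serpina1c, Ahsg, Fgb, Cps1, Ugt2b1, Fgg, Kng1, Slc10a1, Serpina1b, Mat1a, Cyp4a12a and Elovl3. Of these, 6 encode proteins secreted into plasma: the protease inhibitors Serpina1b and Serpina1c, the carrier protein fetuin-A (Ahsg), fibrinogen chains (Fgb and Fgg) and kininogen (Kng1). Serpina1c read 12.4, 12.54, 12.63 and 12.47 in LIV, 3.25, 3.14, 2.93, 2.95 and 3.11 in WAT, and 3.97, 3.27, 3.37, 3.47 and 3.9 in SM. It was 691-fold higher in LIV than in WAT (log2 difference 9.43, SE 0.13, limma adjusted p = 3.16e-18) and 482-fold higher than in SM (8.91, SE 0.13, adjusted p = 4.17e-18). Serpina1 genes are near-identical copies, so their probes may read each other's transcripts.

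The remaining leading genes were enzymes and a transporter. Cps1, the mitochondrial enzyme that commits ammonia to the urea cycle, read 12.43, 12.5, 12.48 and 12.43 in LIV, 3.64, 3.69, 3.62, 3.44 and 3.67 in WAT, and 3.79, 3.61, 3.71, 3.75 and 3.68 in SM. The LIV values spanned less than 0.1, and the smallest gap to another tissue was over 8 log2 units, which gave a 460-fold and a 431-fold difference. Slc10a1, which takes bile acids up from portal blood, differed by 8.80 and 8.57 (SE 0.075 for each). Mat1a makes S-adenosylmethionine, Ugt2b1 adds glucuronic acid to foreign compounds, Cyp4a12a hydroxylates fatty acids, and Elovl3 lengthens them, and their differences from both tissues lay between 8.45 and 8.90. The signals of these genes in WAT and SM lay between 2.79 and 4.40 on the log2 scale, where an array cannot show how little RNA there is, so their folds may understate the true ones.

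Promoters of the genes far higher in LIV were searched for short sequences that liver-enriched transcription factors and the general machinery are known to bind. The 250 bases before the start of transcription (RefSeq, GRCm38.p6) were at hand for 14723 of the 18781 genes, 284 of the 362 genes at least 16-fold higher in LIV and 253 of the 348 genes at least 4-fold lower. Both strands were read, and the spellings were chosen after several had been compared. The C/EBP motif TTGCNNAA was in 20.4% of the higher genes, 10.2% of all genes and 9.09% of the lower genes. The HNF6 motif ATCAATA was in 5.63%, 1.77% and 1.19% in that order, the HNF4 motif CAAAGTCCA in 2.82%, 0.455% and 0.395%, the FOXA motif TGTTTAC in 5.63%, 3.12% and 3.56%, and the TATA box TATAAA in 22.9%, 12.7% and 13.4%. A match is only a match of letters. The promoters of 6 genes described in the text are printed because they hold such matches, which are in capitals, 5′ to 3′ on the strand of the gene.
Alb: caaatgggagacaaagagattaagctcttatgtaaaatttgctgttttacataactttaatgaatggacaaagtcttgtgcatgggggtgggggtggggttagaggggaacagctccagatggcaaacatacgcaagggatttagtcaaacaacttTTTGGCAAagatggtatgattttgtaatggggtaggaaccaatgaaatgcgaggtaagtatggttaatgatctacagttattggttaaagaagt
Fgb: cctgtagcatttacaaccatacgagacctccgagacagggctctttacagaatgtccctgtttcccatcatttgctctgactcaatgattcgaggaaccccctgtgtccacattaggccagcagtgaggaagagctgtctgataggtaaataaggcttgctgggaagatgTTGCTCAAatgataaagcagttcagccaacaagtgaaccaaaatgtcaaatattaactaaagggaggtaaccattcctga
Fabp1: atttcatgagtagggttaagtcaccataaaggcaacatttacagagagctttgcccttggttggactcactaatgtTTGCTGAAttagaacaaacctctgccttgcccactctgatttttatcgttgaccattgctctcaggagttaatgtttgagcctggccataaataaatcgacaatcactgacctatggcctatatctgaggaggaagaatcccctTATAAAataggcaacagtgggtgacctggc
G6pc: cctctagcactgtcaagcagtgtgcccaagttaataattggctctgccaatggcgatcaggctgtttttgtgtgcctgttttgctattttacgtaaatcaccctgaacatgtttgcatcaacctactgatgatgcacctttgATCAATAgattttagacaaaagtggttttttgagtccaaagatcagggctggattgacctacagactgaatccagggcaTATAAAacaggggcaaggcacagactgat
Slc2a2: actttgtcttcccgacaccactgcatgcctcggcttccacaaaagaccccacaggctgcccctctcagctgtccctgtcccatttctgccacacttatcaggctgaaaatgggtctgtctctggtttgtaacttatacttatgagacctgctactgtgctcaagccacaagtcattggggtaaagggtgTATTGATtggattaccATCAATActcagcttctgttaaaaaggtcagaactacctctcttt
Cyp2c70: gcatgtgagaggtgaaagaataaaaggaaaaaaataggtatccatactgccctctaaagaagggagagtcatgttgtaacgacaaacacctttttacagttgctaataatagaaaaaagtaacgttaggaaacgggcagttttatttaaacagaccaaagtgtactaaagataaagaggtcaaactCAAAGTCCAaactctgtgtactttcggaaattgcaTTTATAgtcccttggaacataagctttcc

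The printed stretches end at the base before the start. That of Alb lies at chr5:90460620-90460869 (plus strand) with a reversed C/EBP match from base 94 to base 87 before the start, and that of Fgb at chr3:83049864-83050113 (minus strand) with a C/EBP match from 80 to 73. The promoter of Fabp1, which encodes the fatty acid binding protein of liver, lies at chr6:71199629-71199878 (plus strand) and holds a C/EBP match from 174 and a TATA box from 30. The promoter of G6pc, the enzyme that releases free glucose, lies at chr11:101367466-101367715 (plus strand) and holds an HNF6 match from 108 and a TATA box from 29. The promoter of Slc2a2, the glucose transporter of hepatocytes, lies at chr3:28697653-28697902 (plus strand) and holds 2 HNF6 matches, from 61 on the opposite strand and from 45 on the gene's own. The promoter of Cyp2c70, a P450 enzyme that makes muricholic acids, lies at chr19:40187287-40187536 (minus strand) and holds an HNF4 match from 64 and a reversed TATA box from 29.

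Proteins exported to blood filled several of the lists that were higher in LIV. Of 29 measured plasma carriers and protease inhibitors, 24 (82.8%, against 12.7% of all genes) were higher in LIV than in both, with median differences of 6.22 from WAT and 6.96 from SM. By limma 0 were lower than in both, also at an unadjusted p under 0.05. The heme carrier Hpx (8.53 and 8.43) and the bikunin precursor Ambp (8.50 and 8.41) were among them. Among the exceptions were proteins that fat also makes. The retinol carrier Rbp4 read 12.76, 12.67, 12.7 and 12.67 in LIV, 12.04, 12.08, 12.05, 12.02 and 12.08 in WAT, and 9.09, 8.1, 8.82, 6.47 and 7.27 in SM, an order of SM arrays that was also that of their adipocyte marker means. Its LIV and WAT arrays did not overlap, but the difference of 0.65 (SE 0.381, adjusted p = 0.167) was not called by limma. The fit pools the spread of all tissues, so the wide range of the SM values entered that SE. Without SM replicate 4 limma called the difference (adjusted p = 0.0459). Haptoglobin (Hp) differed from WAT by -0.13 (SE 0.427) and transferrin (Trf) by 0.39 (SE 0.265), neither called, and from SM by 3.93 and 3.66.

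Of 21 apolipoprotein and lipoprotein assembly genes, 19 were higher in LIV than in both, among them Apoh (8.48 from WAT and 8.17 from SM), Apoa2 (8.15 and 7.90) and Apof (7.87 and 7.73). Apod, an apolipoprotein of many peripheral tissues, was lower by 2.76 than WAT and by 3.82 than SM, and the cholesterol exporter Abca1, was 1.64 above SM and at -0.30 from WAT, the latter called lower under quantile normalization and reference gene centring.

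Most clotting genes were higher as well. Of 29 measured members 21 (72.4%, against 12.7% of all genes) were higher in LIV than in both. They included fibrinogen, prothrombin (F2, 8.33 and 8.05) and the plasmin inhibitor Serpinf2 (8.49 and 8.23). Lower than in both were 5 (17.2%, near the 14.2% of all genes), which blood cells, endothelium or macrophages are known to express. They were F13a1 (-5.35 and -3.19), thrombomodulin (Thbd, -5.28 and -1.73), Vwf (-2.13 and -1.03) and the plasminogen activators Plau (-3.82 and -2.94) and Plat (-3.00 and -1.57).

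Among 22 complement genes 16 (72.7%, against 12.7% of all genes) were higher than in both. The terminal components C9 (8.20 and 8.06), Hc (complement C5, 8.18 and 7.92) and C8a (7.80 and 7.68) led, with the inhibitor C4bp (7.73 and 7.59). The membrane-bound inhibitor Cd55 was lower in LIV (-0.87 and -1.75), and the 3 chains of C1q, which macrophages make, were lower than in WAT and higher than in SM.

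The machinery of secretion was higher as well, by less. Of 47 genes of the secretory pathway and endoplasmic reticulum 30 (63.8%) were higher in LIV than in both, with median differences of 0.83 and 0.95. By limma 0 were lower than in both, and 1 was at an unadjusted p under 0.05 with no minimum fold. The chaperone genes Sdf2l1 (2.00 and 3.21) and Hyou1 (1.66 and 2.46), the stress sensor Ern1 (1.91 and 1.98) and the disulfide isomerase P4hb (1.48 and 1.79) were examples.

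**Figure D3:**
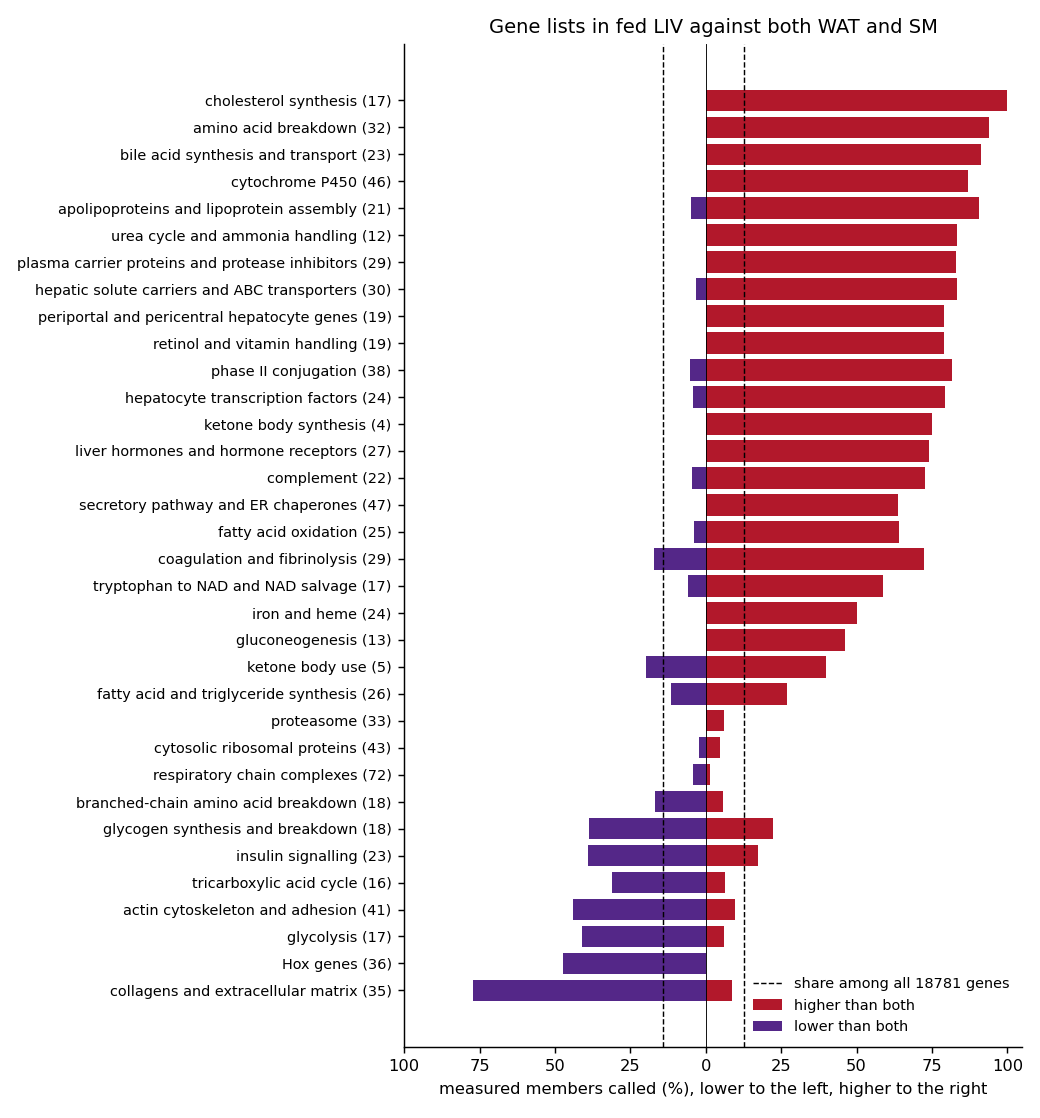
Share of the measured members of each pathway or family list (cell type marker lists not drawn) called higher (red, right) or lower (purple, left) in LIV than in both WAT and SM, in percent, with the number of measured members in parentheses and the shares among all 18781 genes as dashed lines (12.7% and 14.2%). Cholesterol synthesis (100%), amino acid breakdown (93.8%), bile acid genes (91.3%) and apolipoproteins (90.5%) reach farthest on the high side, and collagens and extracellular matrix (77.1%) farthest on the low side.

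Amino acid breakdown was nearly complete on the high side. Of 32 measured enzymes 30 (93.8%) were higher in LIV than in both, with medians of 6.07 and 6.35. They included tryptophan dioxygenase (Tdo2, 8.41 and 9.03), tyrosine aminotransferase (Tat, 8.68 and 8.37) and betaine-homocysteine methyltransferase (Bhmt, 8.67 and 8.25). The exceptions were the taurine pathway enzyme Cdo1, at -0.08 from WAT and 3.98 from SM, and the aspartate aminotransferase Got1. Got1 read 11.57, 11.75, 11.59 and 11.72 in LIV, 6.93, 7.19, 7.27, 7.07 and 6.9 in WAT, and 11.85, 12.06, 12, 12.01 and 11.8 in SM. It was thus 4.59 above WAT and, at -0.29 (SE 0.084), not called against SM, where the arrays did not overlap.

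The urea cycle followed, with 10 of 12 genes higher than in both (Otc 7.97 and 7.91, Arg1 7.13 and 7.35, and the aspartate carrier Slc25a13 5.75 and 6.26). Glutamine synthetase (Glul), which in liver belongs to cells around the central vein, was lower than in WAT (-0.61) and higher than in SM (0.90), the former not called when its probe sets were averaged.

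Branched-chain amino acids were the contrast. Of 18 genes measured 10 were higher than in SM, and 1, Ppm1k, the phosphatase that activates the branched-chain keto acid dehydrogenase, was higher in LIV than in both (2.30 and 1.54). That count was 2 without LIV replicate 2, without WAT replicate 5, with LIV replicate 4 put back and with cyclic loess, and 3 with median centring. The transaminase Bcat2, the entry step, was lower (-3.12 and -1.53), as was the dehydrogenase kinase Bckdk (-1.48 and -2.69). Auh, a hydratase of leucine breakdown, was called lower by -0.41 and -0.63, a call against WAT that was lost with median centring and without WAT replicate 2.

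Tryptophan also feeds the synthesis of NAD. The list of that path and of NAD salvage had 10 of 17 genes higher than in both, with Kynu (8.04 and 8.03), Haao (6.53 and 7.0) and Aox3, an aldehyde oxidase (6.10 and 7.75). Nampt, the salvage enzyme that most tissues rely on, was the 1 gene lower than in both (-0.89 and -1.34).

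Bile acid and drug metabolism genes were high with few exceptions. Of 23 bile acid genes 21 were higher in LIV than in both, among them the export pump Abcb11 (8.09 and 8.07), the rate-limiting enzyme Cyp7a1 (7.11 and 6.96) and Cyp2c70 (8.05 and 7.99). The phospholipid exporter Abcb4 was an exception. It read 10.61, 10.52, 10.58 and 10.46 in LIV, 4.23, 4.15, 4.41, 4.39 and 4.1 in WAT, and 10.45, 10.38, 10.5, 10.43 and 10.43 in SM, so that LIV and SM overlapped (difference 0.11, SE 0.068, adjusted p = 0.203) 6.29 above WAT. The uptake carrier Slco1b2 (7.93 and 7.78) was 1 of 25 genes higher than in both among 30 solute carriers and ABC transporters (83.3%, against 12.7% of all genes). That list was made of hepatic carriers, so its high share was in part built in. Slc43a1, a carrier of neutral amino acids, was lower (-2.38 and -1.87).

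Of 46 cytochrome P450 genes 40 (87.0%, against 12.7% of all genes) were higher than in both. Examples were Cyp2a12 (8.67 and 8.41), Cyp2c29 (8.57 and 8.32), Cyp2d26 (8.42 and 8.24) and Cyp1a2 (8.23 and 8.05). Cyp2e1, the ethanol-oxidising P450, read 12.63, 12.64, 12.71 and 12.63 in LIV and 12.42, 12.58, 12.55, 12.35 and 12.56 in WAT, with a difference of 0.16 (SE 0.254), and 3.07 above SM. Cyp1b1, a P450 of tissues outside the liver, was lower than in WAT by 3.86. Of 38 conjugation genes 31 were higher, Ugt2b34 (8.44 and 8.19) among them, and 2 glutathione enzymes were lower, Mgst3 (-2.79 and -2.73) and Gstm2 (-1.12 and -0.59). P450, Ugt and Gst families hold near-identical members whose probes may cross-react. Of 19 retinol and vitamin genes 15 were higher than in both, led by transthyretin (Ttr, 8.79 and 8.44), which carries retinol and thyroxine, the retinol dehydrogenase Rdh7 (8.53 and 8.27) and Gulo (7.67 and 7.48), the last enzyme of vitamin C synthesis.

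Cholesterol synthesis had every measured member on 1 side. All 17 genes were higher in LIV than in both, by 0.77 to 3.75 against WAT and by 0.53 to 4.76 against SM. Squalene epoxidase (Sqle) read 9.4, 9.74, 9.57 and 9.77 in LIV, 6.44, 6.4, 6.56, 5.86 and 6.11 in WAT, and 5.18, 5.11, 4.65, 4.43 and 4.91 in SM. It was 10.1-fold higher than in WAT and 27.2-fold higher than in SM. Idi1 (3.29 and 3.72), Cyp51 (3.10 and 4.46), Msmo1 (3.21 and 4.44) and Tm7sf2 (3.75 and 4.15) followed, enzymes of the middle and late steps.

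Fatty acid and triglyceride synthesis was less one-sided. Of its 26 genes 7 (26.9%, against 12.7% of all genes) were higher than in both and 3 (11.5%, against 14.2%) lower. Against single tissues, 9 were lower than in WAT (25.6% of all genes were) and 21 higher than in SM (21.8% of all genes were). Higher were the elongase Elovl2 (8.10 and 8.19), the desaturase Fads2 (2.83 and 4.81) and the phosphatidate phosphatase Lpin2 (3.97 and 4.80), and lower were Lpin1 of the same family (-1.62 and -1.92) and the desaturase Scd2 (-3.96 and -1.60). Fatty acid synthase (Fasn) was lower than in WAT (-1.64) and higher than in SM (1.55). Of 25 genes of fatty acid oxidation 16 were higher than in both, including the acyl-CoA synthetase Slc27a2 (8.20 and 8.63), the peroxisomal Acaa1b (3.64 and 5.87) and Decr2 (2.91 and 4.54), and Cpt1a, the mitochondrial gate (1.68 and 3.93), while the thioesterase Acot2 was lower (-1.53 and -1.59).

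Forms of 1 activity were compared over a list of 33 activities, chosen with earlier results known, of which 22 had all forms measured. The form known from liver was higher than in both tissues for 13, and for 7 of these every other form was lower than in both. Slc2a2, the low-affinity glucose transporter, read 10.91, 10.79, 10.7 and 10.77 in LIV, 4.34, 4.8, 4.36, 4.38 and 4.58 in WAT, and 4.1, 4.17, 4.56, 4.11 and 4.09 in SM. Slc2a4, the insulin-responsive transporter, read 3.75, 3.87, 3.86 and 4.25 in LIV, 9.88, 9.98, 10.06, 9.73 and 9.87 in WAT, and 11.16, 11.24, 11.11, 11.18 and 11.15 in SM. The arrays of LIV stood apart from all others for each gene, in opposite directions: 79.0-fold and 96.1-fold higher for Slc2a2, and 62.6-fold and 151-fold lower for Slc2a4.

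The glycolytic end step showed the same exchange. Pklr, the pyruvate kinase of liver, was higher by 6.64 and 6.44 (SE 0.177), and Pkm, the kinase of most other tissues, was lower by 2.76 than in WAT and by 4.95 than in SM (SE 0.10). Hexokinases Hk1 (-1.94 and -0.82) and Hk2 (-4.16 and -5.88), aldolase A (Aldoa, -2.14 and -2.98) and lactate dehydrogenase B (Ldhb, -3.18 and -4.22) were lower as well. They were part of 7 lower genes (41.2%, against 14.2% of all genes) among 17 of the glycolysis list. Some forms divided the tissues in other ways: Pfkl was lower than in WAT (-0.77) and higher than in SM (1.55), and Pfkm was 4.87 below SM with 0.30 from WAT.

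Release of glucose was the reverse. G6pc read 12.37, 12.24, 12.25 and 12.13 in LIV, 3.75, 3.66, 3.78, 3.73 and 3.59 in WAT, and 3.94, 3.92, 4.16, 3.75 and 3.55 in SM, a 374-fold and a 334-fold difference, while G6pc3, the form of most cells, was lower by 2.52 and 2.38. Fbp1 was higher by 8.37 and 8.44, and Fbp2, the form of muscle, was 4.60 below SM. Pck1, which makes phosphoenolpyruvate for glucose or for glycerol, read 11.98, 11.88, 12.08 and 11.99 in LIV, 11.79, 11.95, 11.93, 11.85 and 12.11 in WAT, and 9.09, 8.06, 8.72, 6.44 and 7.29 in SM. Its LIV and WAT arrays overlapped (difference 0.06, SE 0.38), and its SM arrays ran in the order of their adipocyte marker means.

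Glycogen genes followed the same division. Gys2, the glycogen synthase of liver, was higher by 3.20 than in WAT and by 6.24 than in SM (SE 0.243), and Gys1 was lower by 4.30 and 5.59 (SE 0.070). The phosphorylase Pygl read 10.74, 10.71, 10.71 and 10.73 in LIV, 9.73, 9.97, 9.51, 9.38 and 9.78 in WAT, and 6.77, 6.1, 6.39, 5.17 and 5.42 in SM, and Pygm, the muscle form, was lower by 1.11 and 7.81. Among the targeting subunits of the glycogen phosphatase, Ppp1r3b was higher (3.37 and 4.14) and Ppp1r3a was 7.66 below SM. Of the 18 glycogen genes 4 (22.2%, against 12.7% of all genes) were higher than in both and 7 (38.9%, against 14.2%) lower. Of 13 gluconeogenesis genes 6 (46.2%) were higher than in both.

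Lipid carriers and channels divided alike. Fabp1 was 424-fold and 297-fold higher in LIV, Fabp4 of adipocytes was 62.9-fold and 14.1-fold lower, and Fabp3 of muscle was 7.01 below SM with -0.15 (SE 0.106) from WAT. The fatty acid transporter Slc27a5 was higher (8.12 and 7.70) and Slc27a1 lower (-4.06 and -2.71). For glycerol, Aqp9 was higher (6.47 and 7.12) and Aqp7 lower (-8.05 and -5.91), the latter with SM values of 9.39 to 9.77. Of 24 iron and heme genes 12 (50.0%) were higher than in both. Iron uptake showed Tfr2 higher (6.52 and 6.71) and Tfrc 2.73 below SM and 0.80 above WAT, a WAT call lost when LIV replicate 4 was put back.

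**Figure D4:**
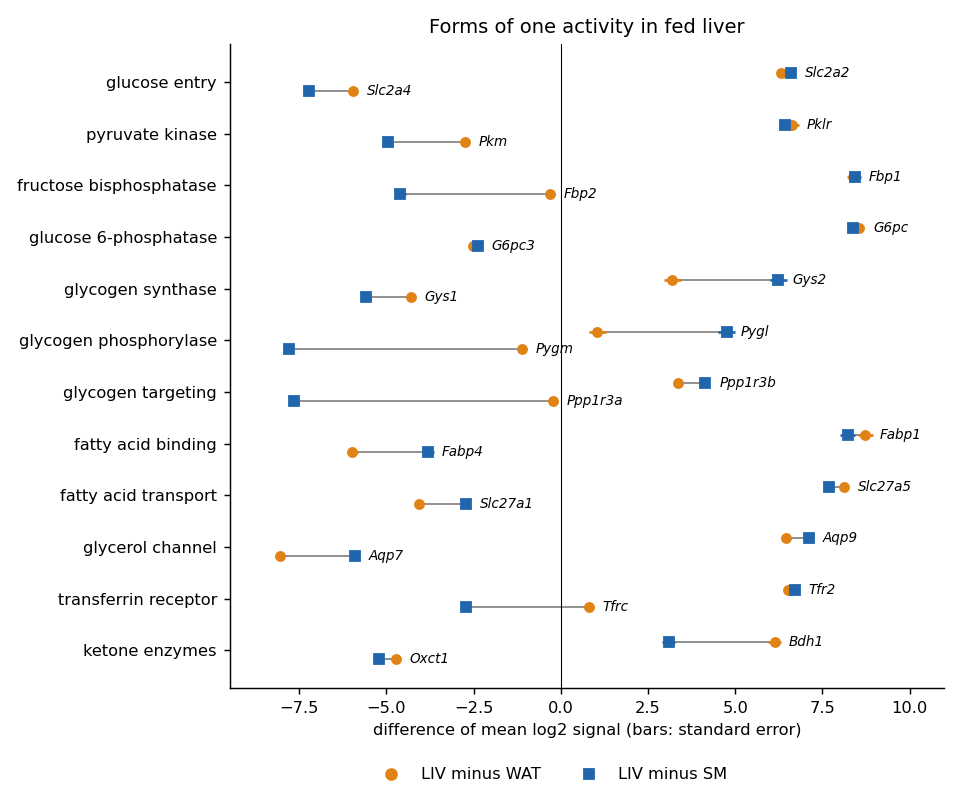
Difference of mean log2 signal LIV minus WAT (circles) and LIV minus SM (squares) for pairs of genes that encode forms of one activity or, in the last line, enzymes of ketone synthesis and use, chosen after their values were seen, with standard errors of the fit. The upper gene of each pair lies to the right of 0 in both comparisons, up to 8.73 for Fabp1, and the lower gene to the left, down to -8.05 for Aqp7, apart from Tfrc against WAT (0.80). Fbp2 and Ppp1r3a lie near 0 against WAT and were not called in that comparison.

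Ketone bodies are made in liver and burned elsewhere. Oxct1, the enzyme that a tissue needs to burn them, read 4.65, 5.17, 4.73 and 4.85 in LIV, 9.63, 9.61, 9.55, 9.61 and 9.56 in WAT, and 10.1, 10.07, 10.18, 10.06 and 9.93 in SM, which was 26.8-fold and 37.3-fold lower. Bdh1, which interconverts the ketone bodies, was higher by 6.13 than in WAT and by 3.09 than in SM (SE 0.185). The thiolase Acat1 (0.68 and 0.52) and the monocarboxylate carrier Slc16a1 (0.45 and 0.60) were higher by less, and the WAT call of Slc16a1 was lost with LIV replicate 4 put back, under quantile normalization and with reference gene centring.

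Transcription factors of hepatocytes were high with few exceptions: 19 of 24 (79.2%, against 12.7% of all genes) exceeded both. The list was made of factors known from hepatocytes, so a high share was in part built in. Hnf4a, a nuclear receptor that hepatocytes need for their identity, read 11.5, 11.39, 11.58 and 11.48 in LIV, 4.92, 4.24, 6.18, 5.69 and 4.64 in WAT, and 4.58, 4.78, 5.08, 4.58 and 4.85 in SM. The xenobiotic receptor Nr1i2 (6.10 and 5.91), Creb3l3 (5.94 and 5.75) and the bile acid responsive repressor Nr0b2 (5.58 and 5.55) were alike. Cebpa was 3.02 above SM and at -0.62 from WAT (SE 0.28, limma adjusted p = 0.0745), a difference that was called without SM replicate 4 (adjusted p = 0.0257), without SM replicate 1 (adjusted p = 0.0395) and under 4 other alternatives. The oestrogen receptor Esr1 was lower than in both (-0.82 and -0.94).

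Of 27 genes on the list of liver hormones and hormone receptors, 20 (74.1%, against 12.7% of all genes) were higher than in both. Hepcidin (Hamp), the hormone that limits iron entry, read 11.15, 11.37, 11.65 and 11.56 in LIV and between 3.35 and 3.65 on all WAT and SM arrays. Lect2 (7.70 and 7.82), Fgl1 (6.48 and 6.84) and the glucagon receptor Gcgr (5.59 and 5.88) followed. Hjv, the hemojuvelin that hepatocytes need to induce hepcidin, read 10.16, 10.2, 9.97 and 10.23 in LIV, 3.86, 4.29, 4.23, 4.3 and 3.91 in WAT, and 12.07, 12.11, 12.08, 12.07 and 12.17 in SM, so that LIV lay between them.

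Insulin signalling genes leaned to the low side, with 9 of 23 (39.1%, against 14.2% of all genes) lower than in both. The 4 higher than in both made up 17.4%, near the 12.7% of all genes. Lower were Tbc1d4, which holds the insulin-responsive transporter inside the cell (-2.88 and -3.45), Grb10 (-2.44 and -2.56), Igf1r (-1.99 and -1.77), Akt2 (-1.09 and -1.0) and Irs1 (-0.78 and -0.49). Higher were Grb14 (1.23 and 1.24), Trib1 (1.36 and 0.92), Trib3 (0.45 and 1.08) and Foxo3 (0.66 and 0.66), and the WAT call of Trib3 was lost without LIV replicate 5 and with reference gene centring.

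The other cells of the liver were visible too. Of 10 sinusoidal endothelial markers 8 (80.0%) were higher in LIV than in both, led by the lectin Clec4g, which read 10.45, 10.34, 10.29 and 10.29 in LIV and between 3.61 and 4.15 elsewhere. Dnase1l3 (4.96 and 5.35), Oit3 (4.34 and 4.32) and the transcription factor Gata4 (3.61 and 3.39) followed, while Lyve1 and Stab1, also of lymphatics and macrophages, were lower than in WAT (-1.39 and -0.62). Markers of endothelium in general went the other way: all 11 were lower than in WAT and 7 lower than in both, such as Pecam1 (-2.70 and -1.18), Cdh5 (-2.55 and -1.09) and Emcn (-3.20 and -1.88).

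Macrophage genes divided in a similar manner. The Kupffer cell genes Cd5l (4.28 and 4.60), Clec4f (3.80 and 3.70) and Vsig4 (3.08 and 5.21) were higher than in both. General macrophage genes such as Cd68 (-1.67) and Lyz2 (-2.26) were lower than in WAT, as were 6 of the 12 on the list. Of the 8 stellate cell markers 5 were higher than in both, with Lrat, which stores retinol as ester (4.58 and 4.72), Reln (3.76 and 4.04) and Colec11 (2.60 and 2.51), and Des, also a muscle protein, was lower (-1.80 and -6.03).

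Markers of other cells that the samples might hold were read as well. Of 8 mesothelial markers, from the lining of the abdominal organs, all were lower than in WAT and 7 higher than in SM, with means on the WAT arrays of 8.0 to 8.87, on the LIV arrays of 4.56 to 5.76 and on the SM arrays of 4.49 to 4.67. Of 6 bile duct markers 2 were higher than in both, Sox9 (0.46 and 0.75) and Cldn7 (0.44 and 0.42), but arrays overlapped for each, and both calls were lost without LIV replicate 2, at a false discovery rate of 1% and with reference gene centring. Of 8 lymphocyte markers 0 were called in limma against both tissues in the same direction, with 1 at an unadjusted p under 0.05. Of 3 red cell markers 1, the heme synthesis enzyme Alas2 (2.18 and 3.49), was higher than in both. Genes that act along the portal to central axis of the liver lobule were higher than in both in 15 of 19, such as the periportal histidase Hal (7.64 and 7.90) and the pericentral Cyp1a2.

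Genes that every cell uses gave a contrast to these lists. Of 43 cytosolic ribosomal proteins 2 (4.65%) were higher than in both, Rpl26 (0.57 and 0.46) and Rpl3 (0.40 and 1.69), and 1 was lower, Rplp2 (-0.60 and -0.76). Of 33 proteasome genes 2 (6.06%) were higher than in both, Psmb10 of the immune form (0.50 and 1.20) and Psma7 (0.40 and 0.42), and 23 were higher than in WAT. With reference gene centring the calls of Rpl26, Rpl3, Psmb10 and Psma7 against WAT were lost, and that of Psma7 was also lost without LIV replicate 1, without LIV replicate 5 and under quantile normalization, which left 1 proteasome gene.

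On the low side, genes whose LIV arrays lay under every other array, as those of 17.3% of all genes did, were led by Tmem182, Slc2a4, Aqp7, Cbr2, Sgcd, Phlda3, Retn, Retnla, Art3, Timp4, Fry and Myl1. Tmem182, a membrane protein, read 4.54, 3.95, 4.05 and 4 in LIV, 11.35, 11.4, 11.43, 11.34 and 11.33 in WAT, and 11.92, 12.07, 12.06, 12.08 and 11.78 in SM. It was 150-fold lower than in WAT (log2 difference -7.23, SE 0.104, limma adjusted p = 4.86e-18) and 230-fold lower than in SM (-7.85, SE 0.104, adjusted p = 1.19e-18). Sgcd, a part of the dystrophin complex (-5.67 and -5.79), Cbr2 (-6.0 and -5.81), Phlda3 (-5.58 and -5.90) and Art3 (-4.97 and -4.96) were alike in being near equally far below both tissues.

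Of the 12, Retn and Slc2a4 are themselves on the adipocyte marker list. Resistin (Retn) read 4.64, 3.96, 4.15 and 4.98 in LIV, 12.5, 12.62, 12.67, 12.32 and 12.73 in WAT, and 10.86, 10.11, 10.74, 8.09 and 9.16 in SM. Adiponectin (Adipoq), which is not among the 12, read 4.71, 4.26, 4.31 and 4.47 in LIV, 12.35, 12.42, 12.4, 12.24 and 12.38 in WAT, and 9.92, 9, 9.71, 7.56 and 8.31 in SM. SM replicate 4 was lowest and replicate 1 highest for each, as for the adipocyte mean, which both genes enter, whereas Slc2a4 (11.11 to 11.24) and Aqp7 (9.39 to 9.77) varied little in SM, and what adipocytes between the fibres add to SM was not tested. Myl1, a myosin light chain, was high in WAT as well (9.13, 9.54, 9.34, 9.03 and 9.57, against 12.35 to 12.48 in SM and 3.94 to 4.71 in LIV), while 10 of 12 muscle fibre markers were not called between LIV and WAT.

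**Figure D5:**
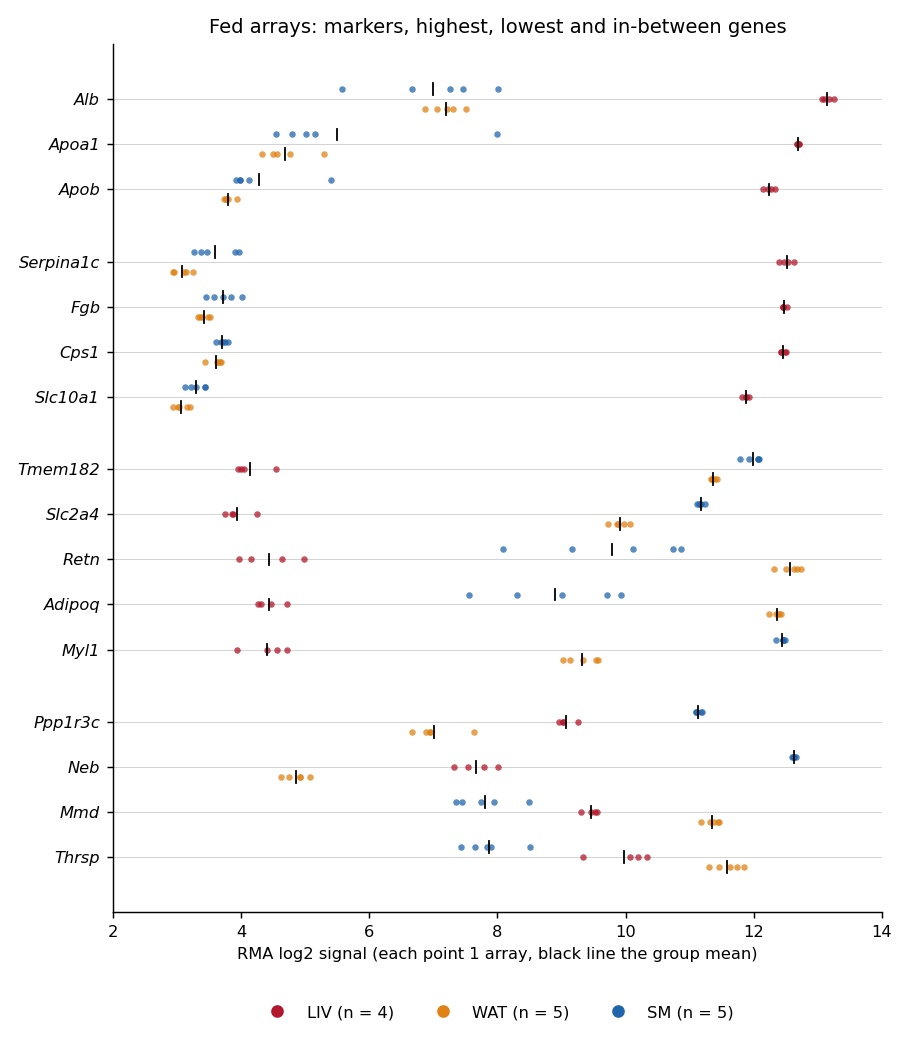
RMA log2 signal (horizontal axis) of 3 hepatocyte markers, 4 of the highest genes, 5 genes far lower in LIV and 4 genes between the tissues, 1 point per array and a black line at each group mean. LIV stands apart from both other tissues in the upper groups, SM values of Retn and Adipoq spread over more than 2 log2 units, and Apoa1 on 1 SM array reads 7.99.

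Connective tissue genes had the largest share on the low side among the pathway lists plotted. Of 35 collagen and matrix genes 27 (77.1%, against 14.2% of all genes) were lower than in both, with medians of -3.06 and -1.42, and 10 of 11 fibroblast markers were lower, such as Mfap5 (-5.67 and -4.26), Dpt (-4.10 and -2.83), Col1a1 (-3.10 and -2.40) and Pi16 (-2.97 and -2.88). Higher in LIV were 3 matrix genes that hepatocytes are known to secrete, vitronectin (Vtn, 4.42 and 4.43), collagen XVIII (Col18a1, 2.24 and 4.09) and fibronectin (Fn1, 0.52 and 2.40). The WAT call of Fn1 was lost under quantile normalization and reference gene centring. Of 41 cytoskeleton and adhesion genes 18 were lower, among them Cav1 (-5.54 and -3.84), Cavin1 (-4.65 and -3.40) and Acta2 (-4.73 and -2.88), and the keratins of simple epithelia were higher, Krt8 (3.77 and 6.10) and Krt18 (4.51 and 5.74).

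Hox genes, which record position along the body axis, were low in LIV. Of 36 measured 17 (47.2%) were lower than in both. By limma 0 were higher than in either tissue, and at an unadjusted p under 0.05 with no minimum fold 2 were above WAT and 0 above SM. Hoxc8 read 4.61, 4.6, 4.65 and 4.48 in LIV, 11.61, 11.64, 11.63, 11.68 and 11.6 in WAT, and 8.57, 8.49, 7.88, 7.65 and 7.64 in SM. Hoxd8 (-3.51 and -5.24), Hoxc6 (-4.50 and -3.24) and Hoxa6 (-3.25 and -2.92) were further members. Hoxc10 was 4.82 below SM and 0.01 from WAT.

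Mitochondrial energy genes were mostly lower than in SM. Of 72 genes of the respiratory chain 27 (37.5%) were higher than in WAT and lower than in SM, an order seen in 2.19% of all genes. Lower than in SM, whatever their order to WAT, were 61 (26.1% of all genes were). The median differences were 0.33 from WAT and -0.70 from SM. Reference gene centring shifted the median over all probe sets against WAT by -0.243 from its 0.021 on the deposited scale. The muscle form Cox8b was lower than in both (-4.54 and -8.08), Cox6a2 and Cox7a1 were 6.16 and 5.54 below SM, and the form of other tissues Cox6a1 was 2.93 above SM. Of 16 tricarboxylic acid cycle genes 15 were lower than in SM (26.1% of all genes were). Citrate synthase (Cs, -1.21 and -1.56) and Idh3a (-1.20 and -3.40) were lower than in both, and Suclg2, which encodes the GTP-forming subunit, was the 1 gene higher (1.74 and 1.26).

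Of the genes with LIV in the middle, the 4 clearest in each order are named. Neb, the giant protein of thin filaments, read 7.54, 7.79, 7.32 and 8.01 in LIV, 4.74, 4.92, 5.08, 4.92 and 4.62 in WAT, and 12.63, 12.65, 12.63, 12.6 and 12.61 in SM, although 10 of 12 fibre markers were not called between LIV and WAT. Ppp1r3c, a glycogen targeting subunit, was 2.05 above WAT and 2.07 below SM, Adssl1, of the purine nucleotide cycle, 2.68 above and 3.51 below, and Ank3 2.80 above and 2.14 below. In the opposite order lay Thrsp, a lipogenic gene (1.61 below WAT and 2.11 above SM), Mmd (-1.90 and 1.66), Efna5 (-1.93 and 1.57) and Snhg11 (-1.66 and 1.67). Thrsp, Mmd, Efna5 and Snhg11 were highest on SM replicate 1, which had the most adipocyte marker signal, among the SM arrays.

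The same comparison in fasted mice, with fasted SM replicate 5 left out because it stood apart in earlier results of these data (the study's text names another fasted SM array), called 2343 genes higher in LIV than in both and 2624 lower. Of the higher genes 1953 were called in both feeding states, 81.6% of the fed and 83.4% of the fasted list, and of the lower genes 2146, 80.6% and 81.8%. Only 4 genes were called in opposite directions. Depp1, a gene induced by fasting, was above WAT and SM in fed LIV (2.55 and 2.92) and under them in fasted LIV (-0.53 and -1.88), as were Dpy19l3 (0.95 and 1.44, then -0.52 and -0.45) and Usp3 (0.48 and 0.64, then -0.48 and -0.44). Gm15441 went from -0.77 and -0.69 in fed LIV to 1.65 and 2.11. These 4 were named after their values were seen, and the WAT call of Usp3 in fed mice was lost with reference gene centring.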

How the data were processed

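The authors hybridised total RNA of each tissue and mouse to Affymetrix Mouse Gene 1.1 ST arrays and processed the scans with RMA in Partek (background correction, then quantile normalization, then median polish), and the deposited log2 values were used as given for 28815 probe sets on 30 arrays (0 columns lacked a sample, 0 array pairs were identical). This scaling hides differences in total mRNA between tissues. Scanner intensities were not used here, and the signal floor limits low values. Each group held 4 or 5 arrays, which limits the precision. The labels call them biological replicates.

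Probe sets were named from the platform annotation (21153 with 1 symbol, 1867 with several, 5795 not named), and a gene was read from the brightest of its probe sets with 1 symbol. A linear model with 1 mean per tissue was fitted to the 14 fed arrays with limma 3.58.1 in R 4.3.3 (empirical Bayes, prior degrees of freedom 3.89). It pools the spread of all tissues, so genes that vary among SM arrays have a wider SE against WAT too. The p-values were adjusted (Benjamini-Hochberg) across the 28815 probe sets. On simulated data of 28815 probe sets the fit found 55 of 67 differences of 1.5-fold, 63 of 67 of 2-fold and 65 of 66 of 4-fold in each comparison. Among unchanged probe sets it called 4 against WAT and 5 against SM. The simulated tissues shared 1 mean and 1 spread per probe set, and far fewer probe sets differed than were called here. Recovery in the measured data may thus differ. Python 3.11.15 with pandas 2.3.3, numpy 2.4.6 and matplotlib 3.10.9 made the counts and figures.

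Members and 47 gene lists (1128 entries, 1023 measured) were chosen with earlier results of these data known. Named were 3 markers, the 12 highest and 12 lowest genes by the smaller difference, the 4 leading genes of each list and direction, forms of 1 activity, and the 4 clearest genes in each middle position. Others (Rbp4, Hp, Trf, Got1, Pck1, Abcb4, Cyp2e1, Hjv, Hnf4a, Cebpa and others without a leading place in a list) were chosen after their values were seen. Alternatives were other array sets, a replicate block, variances without moderation, array weights, filters, 4 scalings, other thresholds and each array left out in turn. Replicate numbers are not said to mark the same mouse, so they were not taken as pairs. Deviations of same-numbered arrays correlated between -0.057 and 0.161 over the tissue pairs, and those of differently numbered arrays between -0.138 and 0.119. With so few arrays per tissue, these values cannot show whether same-numbered arrays came from the same mouse. By the paper's methods, liver, fat and muscle were dissected from each mouse. The tissue groups can thus share animals, which the main fit did not model.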

Additional observations from a re-analysis of the deposited data

Results flagged for a closer look

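For each gene named in the text and each marker list, the arrays of 1 tissue were searched for a highest or lowest value set apart from the rest by more than Dixon's 95% critical value. Of 702 such groups, 51 held an array of that kind, where chance gives about 1 in 20, or 35.1. SM replicate 3 held 9 of them and WAT replicate 3 held 9, the most of any arrays.

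SM replicate 3 read high for some genes of hepatocytes: Apoa1 at 7.99 (4.54 to 5.15 on the other SM arrays), Apob at 5.41 (3.92 to 4.12), Cyp3a11 at 5.25 (3.16 to 3.41), Fabp1 at 4.81 (3.47 to 3.85), Slc2a2 at 4.56 (4.09 to 4.17) and Ugt2b34 at 4.51 (3.43 to 3.62). Alb, Serpina1c and Cps1 lay within the range of the other SM arrays on it. Its mean over mesothelial markers, 4.67, was high as well (4.49 to 4.53), while its mean over sinusoidal endothelial markers, 4.97 (5.11 to 5.16), and Stab1, 6.89 (7.11 to 7.17), were low. Leaving this array out changed no call of these genes, and what liver RNA may add to it was not tested.

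WAT replicate 3 read high for Fabp1 (3.91, others 3.25 to 3.27), Apob (3.93, others 3.74 to 3.79), the glycogen subunit Ppp1r3c (7.64, others 6.67 to 6.95), Ern1 (7.63, others 7.4 to 7.43) and Sox9 (7.18). It read low for Lyz2 (10.69, others 11.02 to 11.13), Hp (12.01, others 12.12 to 12.16), Sgcd (9.53, others 9.73 to 9.81) and Cox6a2 (5.34, others 5.57 to 5.61). The remaining WAT arrays held few such values: Elovl2 was high on replicate 1 (3.36), Cyp7a1 high on replicate 2 (3.08), Cps1 low on replicate 4 (3.44) and Arg1 high on replicate 5 (4.52). All 4 of these are liver genes that read low throughout WAT.

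Among the LIV arrays, replicate 2 was set apart for amino acid enzymes, high for Otc (10.95) and low for Arg1 (11.19) and Tat (12.15). It was also low for Bdh1 (9.76) and Foxo3 (7.37) and high for Gata4 (8.25) and the mean of the endothelial markers (7.75). Replicate 1 was high for Tmem182 (4.54) and Irs1 (9.03) and low for Psmb10 (7.87, others 8.44 to 8.55) and Trib1 (7.15). Replicate 3 was high for Tfrc (7.32, others 6.52 to 6.64) and Cyp2e1 (12.71) and low for Cs (10.28) and Tm7sf2 (10.34). Replicate 5 was high for Hc (12.02), Gstm2 (9.08), Dpy19l3 (7.86) and the fibroblast marker Pi16 (5.08, others 4.03 to 4.21), was high for Rplp2 (5.22), and was low for Cyp3a11 (11.68). Most of these values lay within 0.5 log2 units of the other LIV arrays.

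The other SM arrays gave a few: Kng1 was high on replicate 1 (3.92), Mgst3 high (9.84) and Tfrc low (9.27) on replicate 2, where Rplp2 was low as well (5.61), and Apoh low on replicate 4 (3.78). Replicate 4 also had the lowest mean over muscle fibre markers (12.42, others 12.48 to 12.50). Replicate 5 was high for Cyp7a1 (3.36) and had the lowest mean over reference genes (9.43, others 9.51 to 9.54).

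For the 3 markers, the 12 highest and the 12 lowest genes, the difference between tissues in fed mice was compared with that in fasted mice by the interaction in limma, and 13 of 54 comparisons were called. Elovl3, an elongase high in LIV, stood farther above the other tissues in fed mice, by 0.55 against WAT (8.59 fed, 8.04 fasted, adjusted p = 0.00428) and by 0.51 against SM (adjusted p = 0.0108), and the fibrinogen chain Fgg by 0.53 against SM (adjusted p = 0.0188). These genes were chosen as the most extreme in fed mice, which favours larger differences there. Of the lowest genes, 9 stood farther below WAT or SM in fed mice. Against WAT these were Myl1 (-1.42, from -3.50 fasted to -4.92 fed, adjusted p = 5.55e-05), Tmem182 (-1.22), Slc2a4 (-1.09), Cbr2 (-1.03), Phlda3 (-0.91) and Fry (-0.67). Against SM they were Retn (-1.42, adjusted p = 0.0487), Aqp7 (-0.79, adjusted p = 2.53e-05) and Sgcd (-0.42, adjusted p = 0.034). Art3 went the other way, 0.40 against WAT (-4.97 fed, -5.37 fasted, adjusted p = 0.0212). The direction of LIV against the other tissue was the same in fed and fasted mice for all 13.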

How the results depend on the processing

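The 6 counts of genes higher or lower in LIV stayed within 1.5 times their value under every alternative that kept the 1.3-fold minimum or dropped it, and no difference of a named gene that was called changed sign. A 2-fold minimum left 1684 genes higher and 2506 lower than WAT, 2267 and 2401 against SM, and 1332 and 1083 against both. A 4-fold minimum left 855 and 1013, 1200 and 999, and 749 and 348. Leaving out each array in turn gave 3446 to 3575 higher and 4719 to 4890 lower than WAT, 4037 to 4132 and 4871 to 4982 against SM, and 2368 to 2425 and 2628 to 2714 against both. The replicate block gave 3502 and 4823, 4077 and 4945, and 2392 and 2673, and of the named genes only Cebpa against WAT changed its call. Same-numbered arrays did not deviate together in every pair. With reference gene centring the counts were 2488 and 6947, 3685 and 5648, and 1887 and 3653, and 14 of 442 gene differences lost their call, each of them below 1 on the log2 scale. With all 15 fasted arrays the genes shared between feeding states were 1961 higher and 2139 lower. The causes of single lost calls were not tested. Low signals limit the folds, and lists with few calls moved most, such as the bile duct markers (2 called higher than in both, 0 or 1 with most single arrays left out).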
